A study of Homo sapiens with 18 samples.

Results

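The genes described here are the 10 that carry methionine through the methionine cycle, turn its sulfur into cysteine by transsulfuration, and use that cysteine. They were chosen by name and not by a rule on their values, although earlier results of these data were known. They are the rows of the deposited gene count table whose Ensembl identifiers map to MAT2A, MAT2B, AHCY, MTR, MTRR, CBS, CTH, CDO1, CSAD and MPST. All 10 were found among the 58302 genes of the table. The cells were U87 (U87MG), an established human glioblastoma line, and the libraries were RNA-seq of whole cultures. The control group was U87 cells under normal growth conditions and the Erastin group was U87 cells given 10 μM Erastin for 72 h, with 2 libraries in each group. Both groups carry the alterations of the same single line, so each describes U87 only. Nothing in the labels says that the 2 libraries of a group came from separate cultures, and the p-values then measure only the spread between these libraries, which may be technical.

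Cells make S-adenosylmethionine, the universal methyl donor, from methionine. After the methyl group is given away the product is hydrolysed to homocysteine, which is either methylated back to methionine or combined with serine by cystathionine beta-synthase and cleaved by cystathionine gamma-lyase to give cysteine. This transsulfuration route is the internal supply of cysteine for glutathione when uptake of cystine is limited. Erastin is known as an inhibitor of the cystine/glutamate antiporter (system xc-) and as an inducer of ferroptosis, an iron-dependent form of cell death with lipid peroxidation, so the comparison asks how the RNAs of this alternative supply stood in cells with the antiporter inhibited.

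The libraries held 29412656 to 31513519 counted reads and 23519 to 23990 genes with at least 1 read. Replicates of a group differed by more than sampling noise, with a chi-square per degree of freedom of 11.1 between the control libraries and 9.1 between the Erastin libraries. Both values take each read as independent, although both mates of a pair were counted, which raises them. Levels are given as CPM, the reads of a gene as a share of all counted reads, scaled per library and not corrected for gene length. Of the lists of cell type markers, the 7 astrocytic and glioma genes summed to 3997 and 3923 CPM in control and 2672 and 2861 CPM with Erastin, and 3 of the 5 tested fell while 0 rose. VIM and CD44 made up most of that sum, GFAP was at 1.32 to 2.58 CPM, and S100B and SOX2 were at or near 0 in all 4 libraries. The 4 neuronal markers summed to 64.4 and 69.5 CPM in control and 26.9 and 25.7 CPM with Erastin, and 2 of 3 tested fell. The 3 endothelial markers summed to 4.64 and 6.18 CPM against 1.64 and 2.07 CPM, where PECAM1 fell and VWF, at 4 reads in each control library and 17 and 32 with Erastin, entered the test through the Erastin libraries alone. The 3 immune markers summed to 0.267 to 0.700 CPM over the 4 libraries, with AIF1 at 0. The part of these shifts in the results was not tested, and in RNA of whole cultures fewer cells of a kind and less RNA per cell cannot be told apart.

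One member needs its sequence shown before its values. GRCh38 chromosome 21 holds CBS (ENSG00000160200, chr21:43053191-43076943, minus strand) and, on the same chromosome, a second gene model (ENSG00000274276, chr21:6444869-6468040, minus strand, here called CBSL) that the GENCODE 44 annotation tags as an artifactual duplication of CBS. Of the 20 exon blocks of CBS, 16 were identical in the copy, and over 6786 exon bases there were 6 differences, of which 2 lay in coding sequence, an identity of 99.9116%. The 70-base coding exon below is shown because it holds 1 of those 2 coding differences, given as the capital letter. The sense strand is written 5′ to 3′ from hg38, for CBS from chr21:43065203-43065272 and for the copy from chr21:6456881-6456950.
CBS: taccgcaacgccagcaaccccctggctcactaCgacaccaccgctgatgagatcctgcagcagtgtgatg
copy of CBS: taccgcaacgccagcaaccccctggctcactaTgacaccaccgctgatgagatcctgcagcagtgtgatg

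The 16 identical blocks held no such base. The 135-base coding block of CBS at chr21:43058834-43058968 is shown as an example, because the copy at chr21:6450512-6450646 is the same letter for letter.
CBS and copy of CBS: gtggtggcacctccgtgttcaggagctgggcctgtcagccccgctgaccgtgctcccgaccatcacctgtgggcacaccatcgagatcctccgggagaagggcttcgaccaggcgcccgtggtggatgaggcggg

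When all exon sequence was cut into overlapping words of 31 bases, 97.4% of the words of CBS occurred more than once in hg38. In the other members that share ran from 0% in MTRR and CDO1 to 28.2% in MAT2A. Reads that match more than 1 place equally well were not counted in the deposited table, so the counts given for CBS leave out every read that could not be told from its copy.

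**Figure D1:**
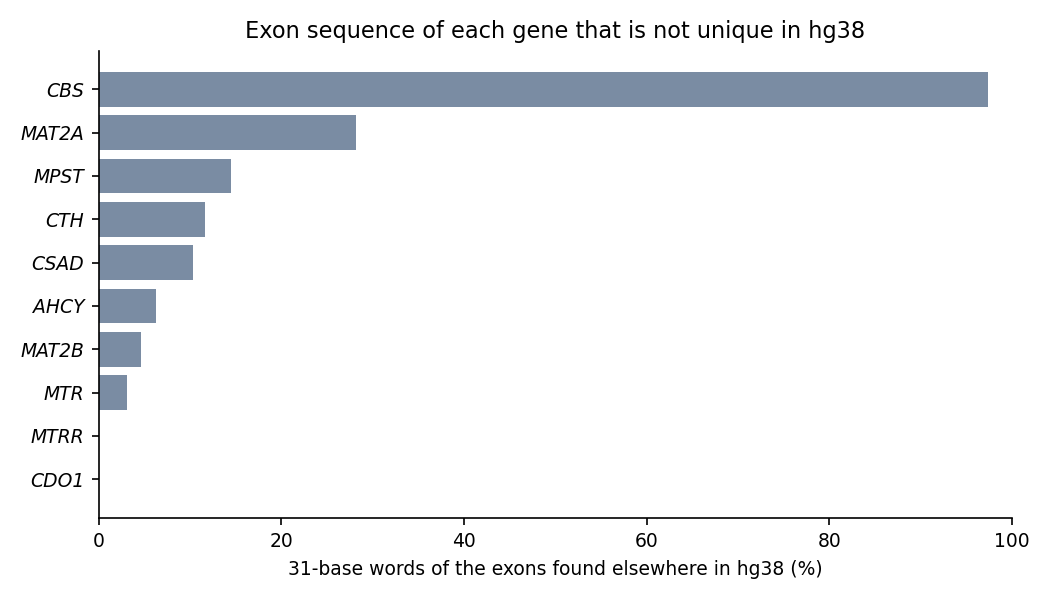
Share of the 31-base words in the exons of each of the 10 genes that occur elsewhere in hg38 (horizontal axis, percent, 1 bar per gene). The bar of CBS reaches 97.4%, the next, MAT2A, 28.2%, and MTRR and CDO1 have none.

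After Erastin, RNA of CTH, the enzyme that releases cysteine, rose 2.74-fold, and RNA of MPST, which takes sulfur from a product of cysteine, fell to 0.357 of control. CSAD and MTR also rose, and MTRR and CDO1 also fell, all by less than 2-fold. MAT2A, MAT2B and AHCY did not pass the test, nor did CBS when the reads given to its copy were left out. Thus 3 of the 10 genes rose and 3 fell at an adjusted p under 0.05 (edgeR quasi-likelihood test, Benjamini-Hochberg adjustment over all 16751 genes tested), where 23.2% of all tested genes rose and 23.7% fell. That 6 of 10 members passed is near the background, since 47% of all tested genes passed in either direction. Past a 2-fold change as well (log2 of 1), 1 member rose, where 6.24% of all tested genes did, and 1 fell, where 9.34% did. The median log2 fold change of the members was 0.14 and that of all tested genes was -0.0026. The Erastin pair was wholly above the control pair for 6 members (36.7% of all tested genes) and wholly below for 3 (36.9%), and the groups overlapped for MAT2A alone.

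**Figure D2:**
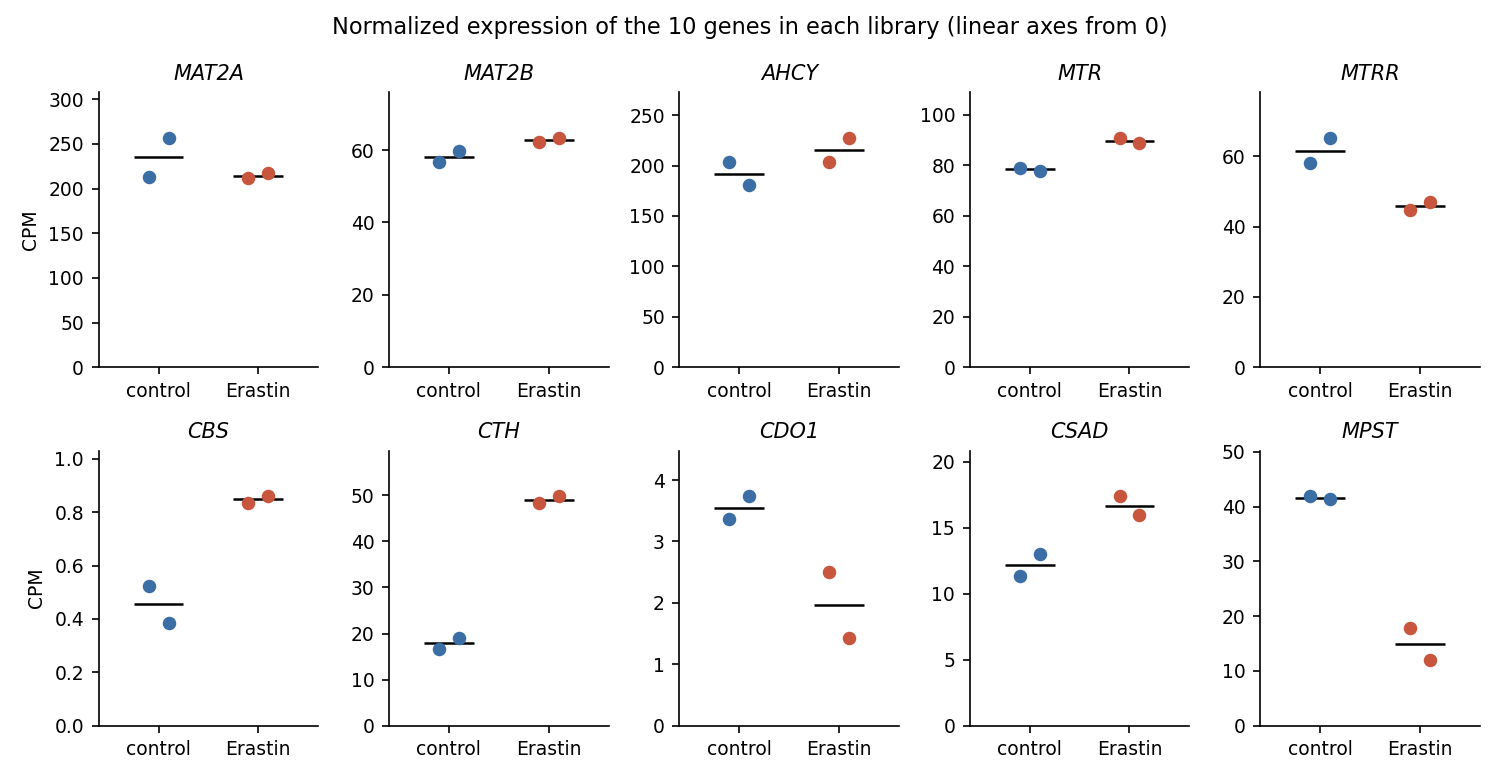
Normalized expression of each of the 10 genes in CPM (vertical axis, linear and starting at 0) in the 2 control (blue) and 2 Erastin (red) libraries, with black lines at the group means. CTH lies at 16.6 and 19.1 CPM in control and at 48.3 and 49.8 CPM with Erastin, MPST at 41.9 and 41.4 CPM against 17.8 and 11.9 CPM, and only MAT2A shows overlapping groups.

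The first step of transsulfuration belongs to CBS, which joins homocysteine to serine. It had 16 and 12 reads in control and 25 and 27 with Erastin, or 0.523 and 0.386 CPM against 0.836 and 0.859 CPM. Both Erastin libraries were higher, but the log2 fold change of 0.89 (SE 0.555, 95% interval -0.32 to 2.11) did not pass the test (adjusted p = 0.213, edgeR). The copy CBSL had 6 and 0 reads in control and 22 and 37 with Erastin, again with both Erastin libraries above both controls. It passed the filter on low counts through the Erastin libraries alone, and its fitted log2 fold change ran from 2.26 to 7.89 with each library left out, so no fold or test is read from it. The reads of the 2 loci were also added in each library and fitted as 1 gene. The log2 fold change was then 1.70 (SE 0.469, adjusted p = 0.0105, edgeR). That call rests on the reads given to the copy, was not refitted with a library left out, and is not taken as a rise of CBS. Nor is the failed test of CBS alone taken as no change. The annotation tags the copy as an artifactual duplication, so reads given to it may be reads of CBS. The call on CBS thus depends on whether the reads given to the copy are counted with it.

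CTH (ENSG00000116761, chr1:70411218-70439851, plus strand), the second enzyme, cleaves cystathionine into cysteine. Its reads numbered 509 and 593 in control and 1444 and 1564 with Erastin. These are 16.6 and 19.1 CPM against 48.3 and 49.8 CPM, and the gap between the groups was far wider than the spread within either. The log2 fold change was 1.46 (SE 0.106, 95% interval 1.22 to 1.69, adjusted p = 5.07e-07, edgeR), which ranks 795 of 16751 tested genes from the highest, with 4.74% of genes above it. With each library left out in turn it ran from 1.36 to 1.55.

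Among the genes that use cysteine, MPST (ENSG00000128309, chr22:37019635-37029822, plus strand) encodes mercaptopyruvate sulfurtransferase, which moves sulfur from mercaptopyruvate to acceptors and can release hydrogen sulfide. It had 1280 and 1286 reads in control and 532 and 375 with Erastin, or 41.9 and 41.4 CPM against 17.8 and 11.9 CPM. The control libraries were nearly equal and both Erastin libraries were far lower, although they differed from each other by more than the controls did. The log2 fold change was -1.49 (SE 0.156, 95% interval -1.83 to -1.14, adjusted p = 1.08e-05, edgeR), with 6.30% of tested genes lower still. It was -1.80 without Erastin replicate 1 and -1.23 without Erastin replicate 2.

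CDO1 (ENSG00000129596, chr5:115804733-115816954, minus strand), cysteine dioxygenase, oxidises cysteine to cysteine sulfinate and so removes it from the pool for glutathione. It was a low gene, with 103 and 116 reads in control and 75 and 45 with Erastin, that is 3.37 and 3.73 CPM against 2.51 and 1.43 CPM. It fell, with a log2 fold change of -0.85 (SE 0.322, 95% interval -1.56 to -0.15, adjusted p = 0.0474, edgeR). The call did not hold under several alternatives. Without Erastin replicate 2 the change was -0.50 with an adjusted p of 0.256, without control replicate 2 the adjusted p was 0.0869, and with all 4 libraries kept DESeq2 gave 0.119 and scaling by library totals gave 0.0580.

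CSAD (ENSG00000139631, chr12:53157663-53180909, minus strand), the next enzyme on that branch, decarboxylates cysteine sulfinate to hypotaurine, the precursor of taurine. It had 348 and 405 reads in control and 520 and 502 with Erastin, or 11.4 and 13.0 CPM against 17.4 and 16.0 CPM. It rose with a log2 fold change of 0.45 (SE 0.137, 95% interval 0.15 to 0.75, adjusted p = 0.0179, edgeR), opposite in direction to CDO1. The adjusted p was 0.0870 without control replicate 1 and 0.117 without Erastin replicate 1. Thus of the 3 cysteine-using genes 1 rose and 2 fell, where 23.2% and 23.7% of all tested genes did.

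**Figure D3:**
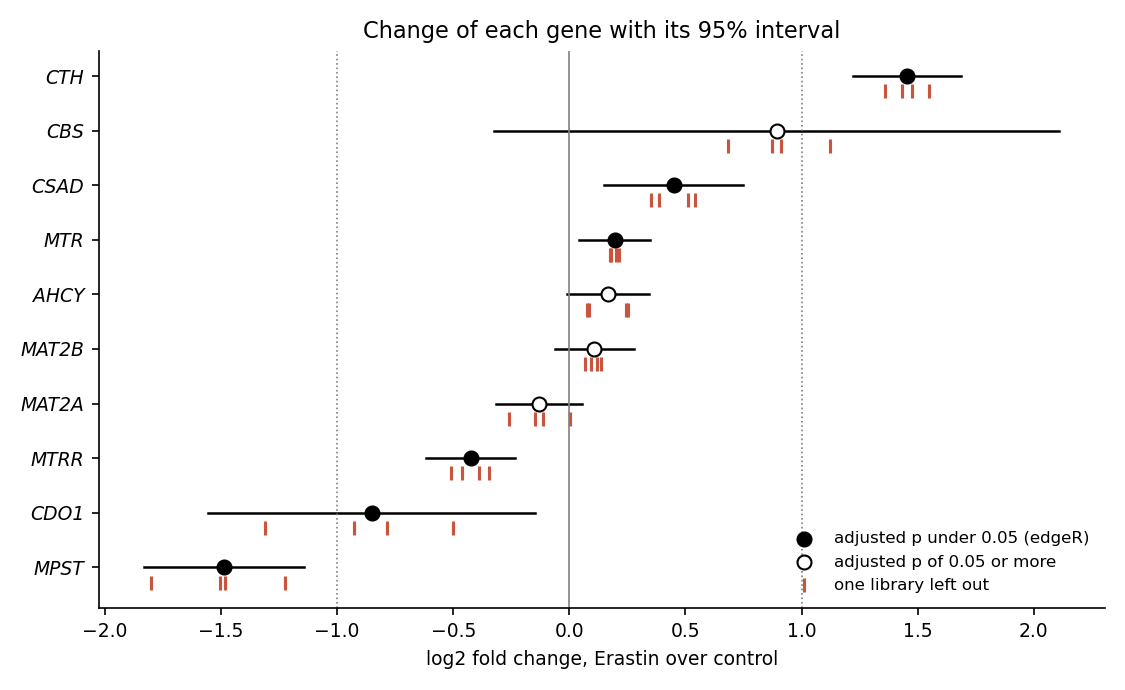
Log2 fold change of each of the 10 genes with Erastin over control (horizontal axis), with 95% intervals as bars, filled points where the edgeR adjusted p is under 0.05 and red ticks for the value with each library left out in turn. CTH at 1.46 and MPST at -1.49 lie beyond the dotted lines at 1 and -1, and the interval of CBS runs from -0.32 to 2.11.

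Of the 5 genes of the methionine cycle itself, 1 rose, 1 fell and 3 did not pass, with a median log2 fold change of 0.11. This share is near the 47% of all tested genes that passed. Methionine adenosyltransferase II, which makes S-adenosylmethionine, has a catalytic subunit encoded by MAT2A and a regulatory subunit encoded by MAT2B. MAT2A (ENSG00000168906, chr2:85539165-85545280, plus strand) was at 213 and 257 CPM in control and 212 and 217 CPM with Erastin. Its groups overlapped, and the log2 fold change was -0.13 (SE 0.0846, 95% interval -0.32 to 0.05, adjusted p = 0.229, edgeR). Control replicate 2 decided its sign and control replicate 1 its call: the log2 fold change was 0.00075 (adjusted p = 0.995) without the former and -0.26 (adjusted p = 0.00140) without the latter.

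MAT2B (ENSG00000038274, chr5:163503114-163519336, plus strand) was at 56.7 and 59.7 CPM in control and 62.1 and 63.4 CPM with Erastin. Both Erastin libraries were higher by a small step, and the log2 fold change of 0.11 (SE 0.0771, 95% interval -0.06 to 0.28) did not pass (adjusted p = 0.279, edgeR). Per kilobase of exon, the ratio of MAT2A to MAT2B was 4.32 and 4.94 in control and 3.92 and 3.94 with Erastin, so both Erastin libraries lay below both controls for the ratio, which was not tested.

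AHCY (ENSG00000101444, chr20:34280268-34311802, minus strand) hydrolyses S-adenosylhomocysteine, the product and inhibitor of methylation reactions, to homocysteine and adenosine. It was at 203.0 and 180.3 CPM in control and 203.1 and 227 CPM with Erastin, so that 1 library of each group stood at almost the same level. The log2 fold change was 0.17 (SE 0.0803, 95% interval -0.01 to 0.34, adjusted p = 0.109, edgeR). It passed without control replicate 1 (0.25, adjusted p = 0.00303) and when libraries were scaled by their totals (0.22, adjusted p = 0.0315).

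Homocysteine returns to methionine through MTR (ENSG00000116984, chr1:236795281-236903981, plus strand), the cobalamin-dependent methionine synthase. Its 78.7 and 77.8 CPM in control stood against 90.8 and 88.6 CPM with Erastin, a small step between tight pairs. MTR rose by a log2 fold change of 0.20 (SE 0.0698, 95% interval 0.04 to 0.35, adjusted p = 0.0367, edgeR), but it did not pass with any library left out (adjusted p 0.0519 to 0.198, lowest without control replicate 1 and highest without Erastin replicate 1) or with DESeq2 (adjusted p = 0.0787).

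MTRR (ENSG00000124275, chr5:7851186-7906025, plus strand) encodes the reductase that restores the cobalamin of methionine synthase after it is oxidised. It had 58.0 and 65.2 CPM in control and 44.7 and 47.1 CPM with Erastin, with both Erastin libraries lower. It fell by a log2 fold change of -0.42 (SE 0.0873, 95% interval -0.62 to -0.23, adjusted p = 0.00178, edgeR), and from -0.51 to -0.35 with each library left out. The enzyme and its reductase thus went in opposite directions in the main fit. The small rise of MTR did not pass with DESeq2 or without the low-count filter, whereas the fall of MTRR did. Per kilobase, the ratio of MTR to MTRR was 0.775 and 0.682 in control and 1.16 and 1.08 with Erastin, a ratio chosen after the values were seen and given without a test.

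Levels can be compared between genes only per length, so CPM were divided by the exon length in kilobases. That length covers all annotated exons of a gene and not the transcripts present, so orders and ratios between genes are approximate. It also includes sequence whose reads may not have been counted because they match elsewhere. The share of repeated words was 28.2% in MAT2A, 6.28% in AHCY and 4.68% in MAT2B, and its part in the levels was not tested. In control the order was MAT2A (52.4 ± 6.85 CPM per kb, SD, n = 2) and AHCY (49.2 ± 4.13), which lay within their spread of each other, then MAT2B (11.3 ± 0.412), MTRR (9.48 ± 0.787), CTH (7.40 ± 0.716), MTR (6.88 ± 0.0528) and MPST (6.16 ± 0.0485). CTH and MTR did not differ beyond their spread. CSAD (2.78 ± 0.267), CDO1 (1.62 ± 0.118) and CBS (0.0670 ± 0.0143) were lowest, the last without the reads it shares with its copy.

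With Erastin, AHCY (55.3 ± 4.41 CPM per kb, SD, n = 2) and MAT2A (47.8 ± 0.885) remained the highest. CTH moved from place 5 to place 3 at 20.3 ± 0.439 CPM per kb, above MAT2B (12.2 ± 0.176), MTR (7.88 ± 0.137) and MTRR (7.06 ± 0.258). MPST (2.20 ± 0.612) moved below CSAD (3.80 ± 0.227), and CDO1 (0.900 ± 0.347) and CBS (0.125 ± 0.00245) kept the last places. The ratio of CTH to CBS per kilobase was 89.4 and 139 in control and 162 and 163 with Erastin. Reads shared by CBS and its copy are missing from the denominator in every library. The reads given to the copy alone, 6 and 0 in control and 22 and 37 with Erastin, are also left out of it. No shift of the ratio is therefore read from these values.

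**Figure D4:**
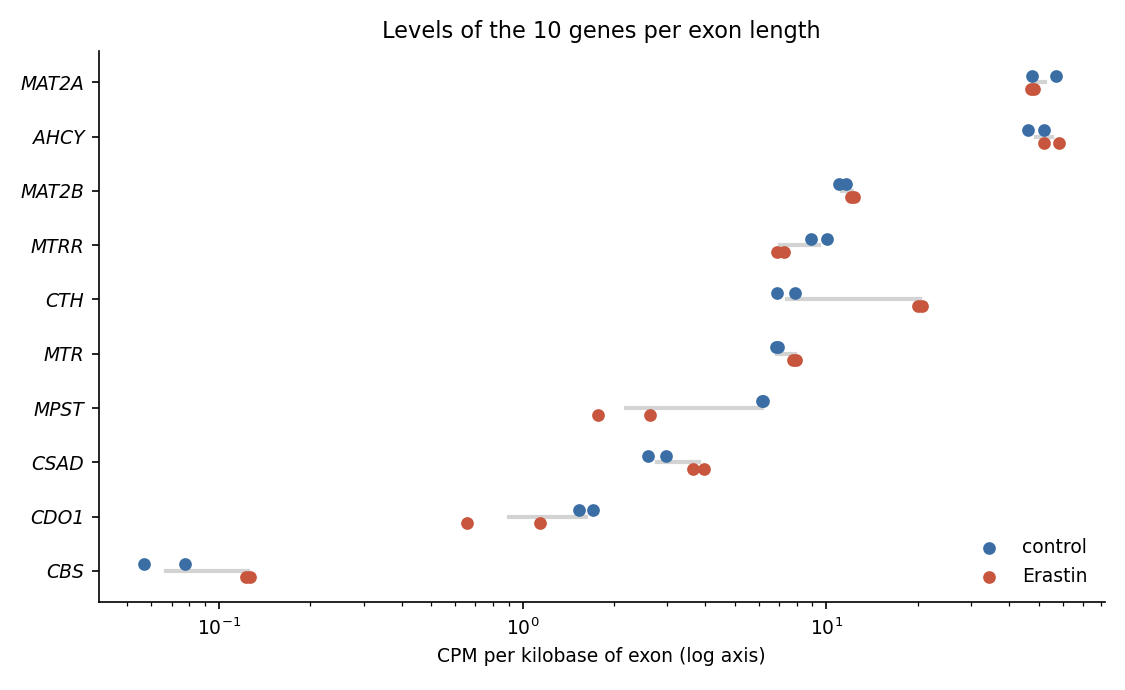
Level of each gene in CPM per kilobase of exon (horizontal log axis) in the 2 control (blue) and 2 Erastin (red) libraries, with a grey line between the group means. MAT2A and AHCY are the highest in both groups, CTH moves from a mean of 7.40 to 20.3 and MPST from 6.16 to 2.20, and CBS is the lowest at 0.0670 and 0.125.

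The counts were made without regard to strand, and reads touching exons of more than 1 gene were not assigned to any. GGCX, on the opposite strand, shares 558 bases (12.4%) of the exon sequence of MAT2A and had 2241 and 2314 reads in control and 1144 and 1330 with Erastin. ZNF740, opposite to CSAD, shares 106 bases (2.41%) and had 1234 and 1191 reads against 1756 and 1872. MTRR shares 100 bases (1.54%) with FASTKD3 (295 and 313 against 340 and 328 reads) and 305 with CFAP90 (0 reads in every library), and MPST shares 6 bases with TST. AHCY and CSAD also share 139 and 184 bases with the unnamed lncRNAs ENSG00000250917, at 10 reads or fewer, and ENSG00000257808, at 0. No annotated exon of another gene overlapped those of CTH, CBS, CDO1, MTR or MAT2B, and the part of overlap in the values above was not tested.

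The other genes of these pathways, a list of 41 with CBSL included, held 33 that could be tested, of which 8 rose, 8 fell and 17 did not pass, or 48.5% that passed, a share near the 47% of all tested genes. Past a 2-fold change 4 rose and 0 fell, beside 6.24% and 9.34% of all tested genes, and 1 of the 4 was CBSL, which entered the test through the Erastin libraries alone. Without it 7 of the list rose, and the median of the 33 was -0.02. The Erastin pair was above the control pair for 14, below for 12 and overlapping for 7, beside 73.6% of all tested genes whose groups did not overlap. The 8 genes not tested had at most 27 reads in any library, and MAT1A, the liver form of the adenosyltransferase, INMT and MTAP had 0 in all 4.

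Of 7 tested genes of the methionine cycle and remethylation outside the members, 4 rose and 1 fell, where 23.2% and 23.7% of all tested genes did. SLC25A26, the mitochondrial carrier of S-adenosylmethionine, went from 10.8 and 7.37 CPM to 19.8 and 18.7 CPM (log2 fold change 1.08, SE 0.173, adjusted p = 0.000299, edgeR). AHCYL2, a relative of AHCY, rose by 0.48 on the log2 scale. The other relative, AHCYL1, fell from 402 and 393 CPM to 306 and 311 CPM (log2 fold change -0.37, adjusted p = 0.000456, edgeR). SLC25A26 shares 15.5% of its exon bases with LRIG1 on the opposite strand.

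Of 6 genes that deliver cobalamin to methionine synthase, 0 rose and 2 fell (23.2% and 23.7% of all tested genes). CD320, the cell surface receptor for transcobalamin, was at 41.2 and 49.3 CPM in control and 24.9 and 20.9 CPM with Erastin (log2 fold change -0.98, adjusted p = 4.07e-05, edgeR). LMBRD1, which takes part in the export of cobalamin from the lysosome, fell by a log2 fold change of -0.72, the same direction as MTRR.

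Of 5 tested methyltransferases of small molecules, which consume S-adenosylmethionine, 1 rose and 1 fell, where 23.2% and 23.7% of all tested genes did. NNMT, which methylates nicotinamide, went from 13.7 and 14.0 CPM to 29.8 and 28.3 CPM (log2 fold change 1.06, adjusted p = 1.22e-05, edgeR). GAMT, which makes creatine, fell by a log2 fold change of -0.68. The salvage of methionine from methylthioadenosine begins with MTAP, which had 0 reads in every library. If reads are taken as independent, a count of 0 allows up to 3 reads, or 0.0955 to 0.100 CPM. Both mates of a pair were counted, so the limit is higher than that. Further along the salvage route MRI1 fell (-0.87) and ADI1 rose (0.94). Of the words of ADI1, 58.1% were found elsewhere in hg38, 50.1% on alternate scaffolds and 21.5% more than once in the primary sequences. Whether the reads were aligned to alternate scaffolds was not examined.

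In the handling of sulfide and persulfide, where MPST also belongs, 1 of 6 tested genes fell and 0 rose (23.7% and 23.2% of all tested genes). KYAT1, a transaminase that can act on cysteine conjugates, was at 22.8 and 23.3 CPM in control and 13.0 and 11.97 CPM with Erastin (log2 fold change -0.88, adjusted p = 9.73e-05, edgeR). On the way from cysteine to taurine and sulfite 1 of 4 tested genes rose and 2 fell (23.2% and 23.7% of all tested genes). ADO, the dioxygenase that makes hypotaurine from cysteamine, rose by 0.55 on the log2 scale, while SLC6A6, the taurine transporter, and GOT2, the mitochondrial aspartate aminotransferase, changed by -0.39 and -0.26, both past the test. GOT2 had an adjusted p of 0.118 without Erastin replicate 1.

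**Figure D5:**
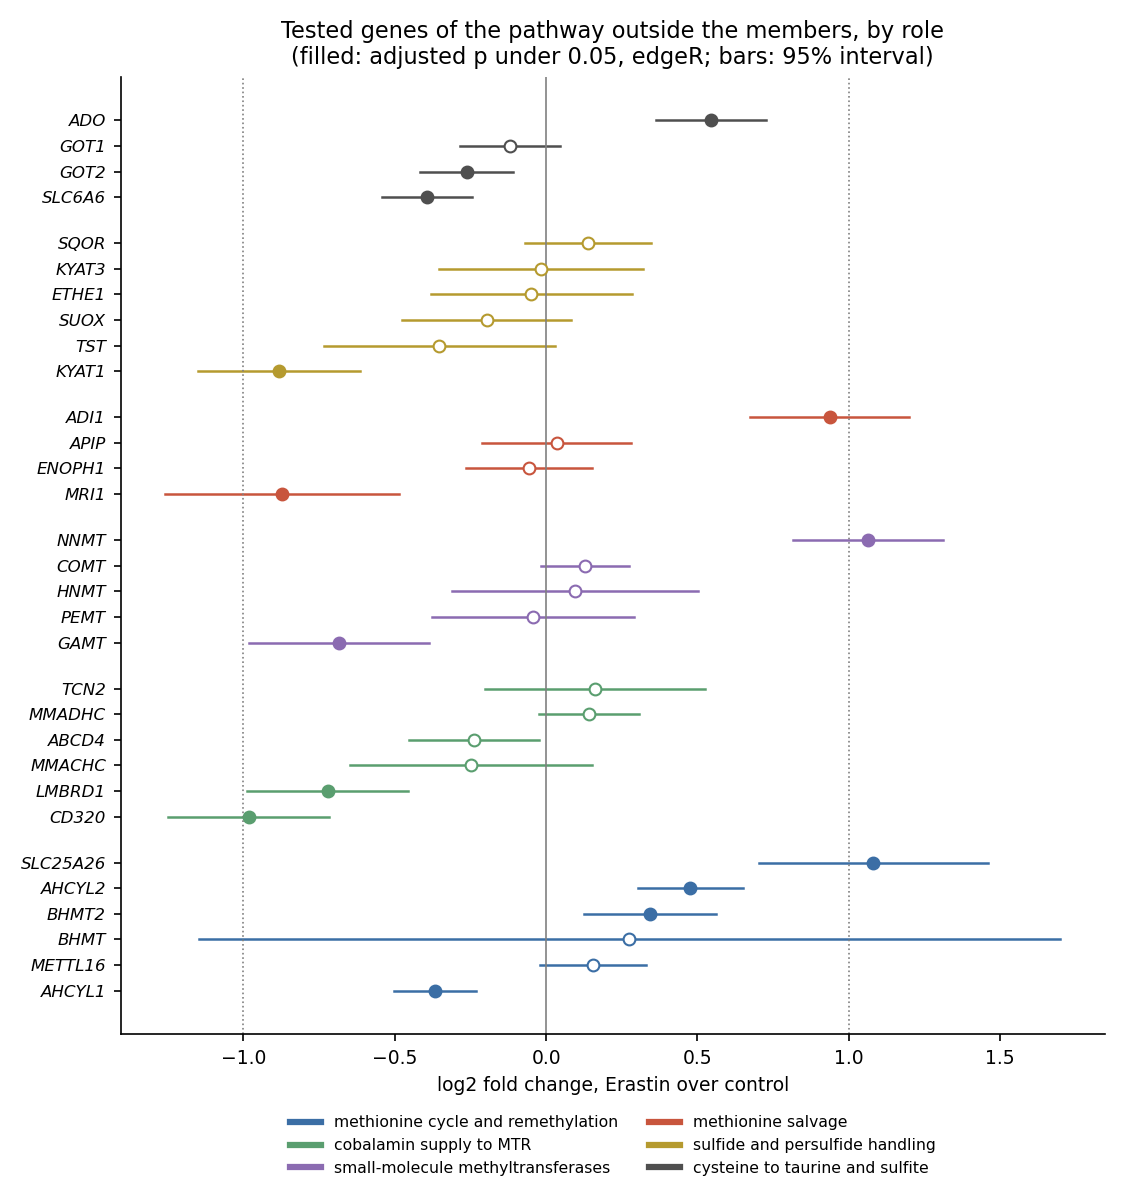
Log2 fold change with Erastin over control (horizontal axis) of tested pathway genes outside the 10 members, grouped and coloured by role, with 95% intervals as bars and filled points where the edgeR adjusted p is under 0.05 (CBSL is not drawn). SLC25A26 at 1.08 and NNMT at 1.06 are past the dotted line at 1, and CD320 at -0.98 is the lowest.

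Promoter letters were read for the members from RefSeq (GRCh38.p14), in windows of 250 bases before to 50 after a transcription start. The table held 14 windows for 8 of the 10 members, all but MTRR and MPST. TGATGNAA, the core of the ATF4 response element, searched on both strands, was in 0 of the 14 windows and in 3.62% of all 35116 windows. TGACNNNGC, the core of the antioxidant response element, was in 1, a window of CBS, as TGACCGCGC on the strand opposite to the gene starting at position -83, and in 13.3% of all windows. Neither match nor absence in these windows says whether a factor binds near these genes.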

How the data were processed

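RNA-seq libraries of U87 cells (2 control, 2 Erastin) were analysed; ChIP-seq and HiChIP samples were not analysed here. The deposited table, made by the authors, holds counts per gene (HISAT2 2.1.0 per the labels; featureCounts 2.0.3 per the file header, version 2.0.4 per the labels; GRCh38, Ensembl release 90; both mates counted, strand ignored, multi-mapping reads and reads over several genes left out). The deposited values needed no treatment as estimated counts: all were whole numbers in every library.

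Counts were tested with edgeR 4.0.16 (R 4.3.3, limma 3.58.1; filterByExpr with a minimum count of 10, TMM factors 0.971 to 1.02, quasi-likelihood test, Benjamini-Hochberg over 16751 genes). The biological coefficient of variation was 10.3%. CPM use TMM-scaled library sizes. On simulated data of this comparison (16349 genes tested), edgeR recovered 99 of 100 genes changed by a log2 of 1, with 5 false calls. The changed genes were drawn only from well-counted genes, and every gene was given the same spread between libraries. The recovery thus says nothing of genes with few reads, such as CBS, or of noisier genes. A single gene cannot go below p = 0.333 in an exact two-sided permutation of 2 against 2 libraries. The 95% intervals of fold changes come from the edgeR fit and include the spread between libraries. The floor of 3 reads covers counting error only and takes each read as independent, although both mates were counted.

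Members and lists were chosen with earlier results of these data known. Named were all members, their overlapping genes, up to 3 passing genes per role with the largest changes and a mean of at least 1 CPM, CBSL and MTAP. AHCYL1 was added as the other relative of AHCY and is left out of the named genes counted under the alternatives. Alternatives were DESeq2 1.42.0, RLE factors, library totals, other filters, read pairs, summed CBS copies, a replicate block and leaving out each library. Same-numbered libraries deviated together with a correlation of 0.0405 over 13661 genes, so the numbers were not taken as pairs. 1 gene of the pathway list is in the counts but is not reported here.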

Additional observations from a re-analysis of the deposited data

How the results depend on the processing

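CTH, MPST and MTRR kept their direction and their side of the threshold under every alternative run on them. Members higher with Erastin numbered 3, and 1 to 2 with each library left out, the lowest without Erastin replicate 1, where CTH alone passed. MAT2A changed sign without control replicate 2, to a log2 fold change of 0.00075, and ranged from -0.26 to that value over the libraries left out. With all 4 libraries kept, 4 member values lost their call (MTR with DESeq2 and without the low-count filter, adjusted p = 0.0787 and 0.0693; CDO1 with DESeq2 and with library totals, 0.119 and 0.0580) and 2 gained one (AHCY with library totals, CBS summed with its copy). With 1 library left out, 8 lost a call, 2 gained one and 1 changed sign, and the lone library of an arm was then assumed to vary like the others. Under the replicate block 3 members were higher and 3 lower, and 4030 of all genes were higher and 4077 lower; it changed no call among the members. With 2 pairs and no label of a shared day or culture, the replicate numbers were taken as names only. Of the named pathway genes, GOT2 lost its call without Erastin replicate 1. CBSL, from which no test is read here, was not tested with at least 10 counts in every library and did not pass without Erastin replicate 2. CBS had only 12 to 27 reads a library.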
